A study of Homo sapiens with 6 samples.

Results

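In all, 38 genes of the Fanconi anemia pathway and of homologous recombination were examined. They were taken by symbol from a list of pathway genes, drawn up with earlier results of these data known, and all 38 were found among the 54259 gene symbols of the count table. MDA-MB-231, a human breast cancer cell line of the triple-negative type, was compared between cells with a short hairpin RNA against the T-box transcription factor brachyury (shBry, 3 libraries) and cells with the control hairpin (shNC, 3 libraries). Both groups carried a hairpin and no other treatment is named in the labels. The hairpin sequences, and whether either group was a single clone or separate cultures, are not given in the sources used here, so the p-values measure only the spread between these libraries. Total RNA was sequenced, and the values are counts of reads per gene.

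The Fanconi anemia pathway repairs crosslinks that tie both strands of DNA together. A core complex of Fanconi proteins acts as a ubiquitin ligase on the pair FANCD2 and FANCI at a stalled replication fork, after which nucleases cut the crosslink free and the resulting break is handed to homologous recombination. In recombination the broken ends are trimmed to single strands, BRCA1, PALB2 and BRCA2 help to start the exchange of strands, and the strands that have exchanged are then separated. Both routes use the sister copy of the DNA, and many of their genes are known to be transcribed mainly in S and G2 phase.

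The libraries held 19319411 to 22985371 counts, and 15277 genes passed the filter on low counts. All 38 members passed, with 30 to 2683 counts in a library. The floor of 3 counts corresponded to 0.131 to 0.155 CPM (counts scaled to the library total, per 1e6), below every value of a member. A floor of this kind covers counting error only. Brachyury itself (symbol T) had 0 counts in all 6 libraries, which allows a level up to that floor, so the knockdown could not be read from these counts. The series text calls the RNA pericardial. The 6 MDA-MB-231 markers (VIM, CD44, AXL, CAV1, MSN and LGALS1) summed to 7525 to 7962 CPM in shBry and 8396 to 8788 CPM in shNC, whereas the 9 pericardial and cardiac markers summed to 44.9 to 50.5 CPM and 35.4 to 38.8 CPM, most of it from MSLN, with ITLN1, MYH6, MYH7 and NPPA at 0. The 8 luminal and epithelial markers summed to 567 to 705 CPM and 1345 to 1461 CPM, most of it from KRT8 and KRT18. The 6 leukocyte markers summed to at most 0.229 CPM in a library.

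Of the members, 19 differed between the groups, most of them downward. A gene was called where its fold change was over 1.5 and the Benjamini-Hochberg adjusted p of edgeR's quasi-likelihood test over all 15277 genes was under 0.05. By this rule 19 of the 38 members (50%) were called, beside 32.4% of all genes tested. In shBry 15 members fell (39.5%, beside 15.2% of all genes), and 4 rose (10.5%, beside 17.1%). The median log2 fold change of the members was -0.41, with a range of -1.45 to 1.0, whereas the median of all genes was 0.033. Summed over the 38 members, expression was 899 to 974 CPM in the shBry libraries and 1157 to 1225 CPM in the shNC libraries, with no overlap. In bulk RNA, fewer cells in S or G2 phase and less of a transcript per cell cannot be told apart.

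**Figure D1:**
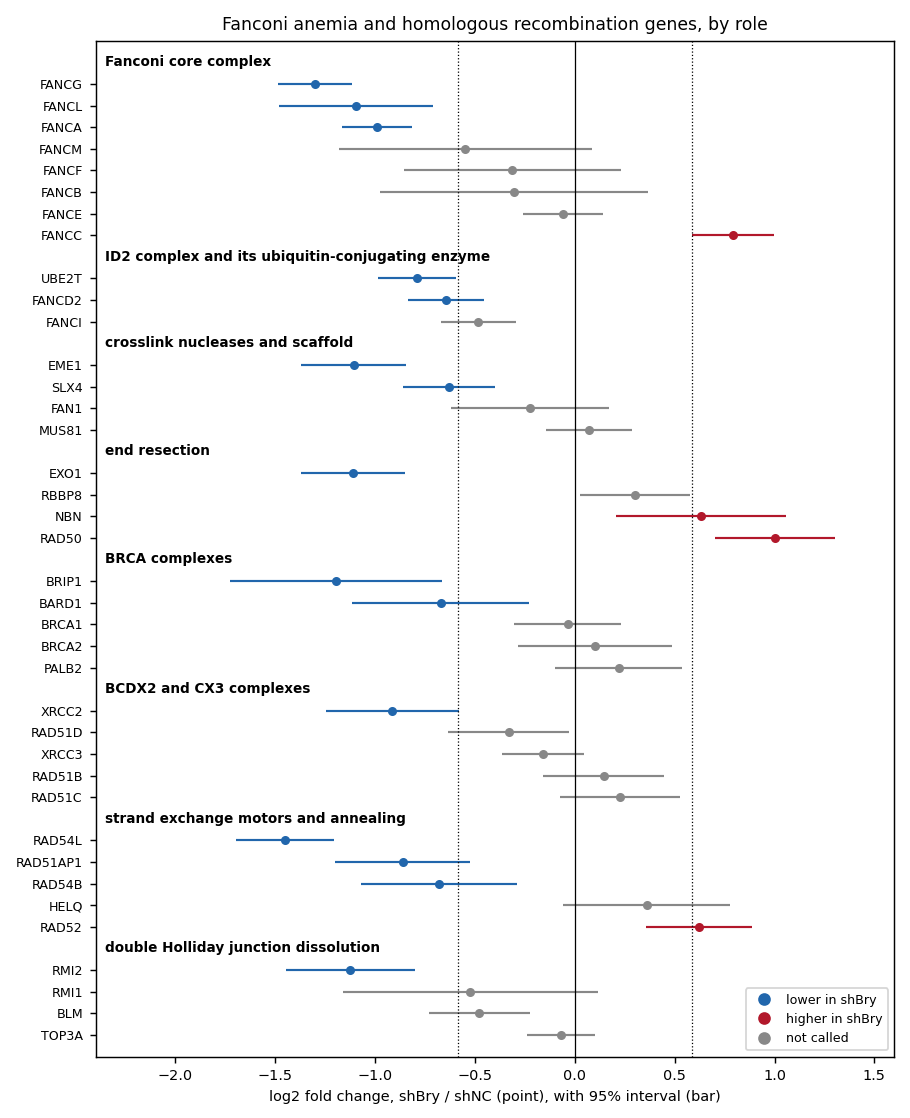
Log2 fold change of each of the 38 members, shBry over shNC, with its 95% interval as a bar, grouped by role, and dotted lines at a fold change of 1.5 in either direction. The 15 members that fell (blue) are spread over all 8 roles, and the 4 that rose (red) are FANCC, NBN, RAD50 and RAD52.

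The 3 shBry values lay wholly below the 3 shNC values in 19 members (28.9% of all genes did so) and wholly above them in 3 (30.6% of all genes), against 59.5% of all genes without overlap in either direction, and the groups overlapped in the other 16. Without the fold limit, an adjusted p under 0.05 was reached by 17 members with lower values and 4 with higher values, beside 25.3% and 28% of all genes (21 members, against 53.3% of all genes, in either direction). The 2 members that passed on p but not on fold were FANCI and BLM. Just inside the limit among the falls was SLX4, and just inside it among the rises were RAD52 and NBN.

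Replicate 2 of shBry and replicate 3 of shNC stood apart from their groups on these genes. Replicate 2 of shBry was the highest of its group in 24 of 38 members (63.2%, against 34.8% of all genes), and replicate 3 of shNC was the highest of its group in 22 (57.9%, against 39.6% of all genes). Both ran high on transcripts poor in G and C. When the tested genes were split into 5 equal bins of GC content, the lowest bin held 14 members, and there the median deviation from the group mean was 0.15 on the log2 scale in shBry replicate 2 and 0.18 in shNC replicate 3, against -0.13 in shBry replicate 1 and -0.14 in shNC replicate 1. The median GC content of the longest transcript was 42.6% in the members and 48.5% in all tested genes with a value. Without both libraries 20 members were called, 17 lower and 3 higher, beside 2471 lower and 2487 higher of all 15333 genes tested in that fit. With the trend of GC content and length removed from each library, 20 members were called, again 17 lower and 3 higher. Of all 15277 genes, 2406 were called lower and 2427 higher in that fit.

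**Figure D2:**
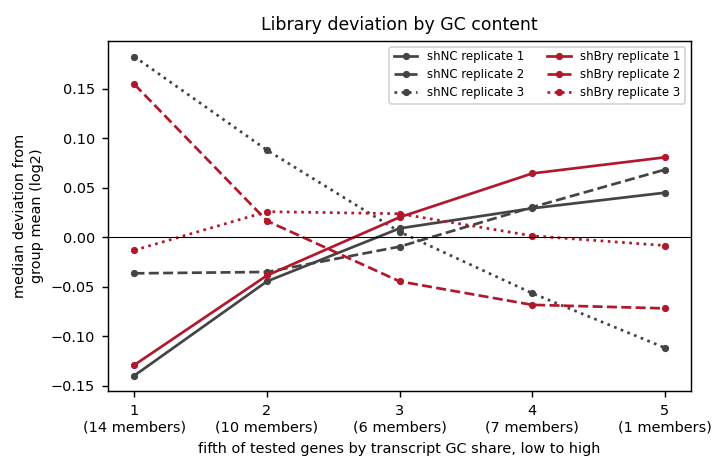
Median deviation of each library from its group mean (log2, y axis) in 5 equal bins of the tested genes ordered by transcript GC share (x axis, with the number of members in each bin). Replicate 2 of shBry and replicate 3 of shNC run high in the lowest bin, at 0.15 and 0.18, and low in the highest bin.

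Annotated starts of the genes, a single window for each gene, were searched for short words known as binding sites of cell cycle factors. Other starts of a gene were not searched. The windows were RefSeq promoters on GRCh38.p14, 250 bases before the start to 50 bases after it, and 34 of the 38 members matched one. The E2F words TTTGGCGC, TTTCCCGC, TTTGCCGC and TTTCGCGC, on either strand, stood in 5 of the 34 members (14.7%), against 5.35% of the 10516 windows of tested genes and 3.33% of all 27305 windows. E2F factors are known regulators of genes for S phase. Of the carriers, 4 (FANCA, FANCD2, EXO1 and XRCC2) were among the 13 matched members that fell, 1 (FANCC) was among the 3 that rose, and none were among the 18 that were not called. Over all tested genes with a window, the words stood in 6.25% of those called lower, 3.25% of those called higher and 5.66% of those not called. The words are rich in G and C, and the median GC content was 64.5% in the members' windows and 58.3% in all windows. The GC content of the windows of tested genes alone was not computed. The part of GC content in these shares was not tested. These 5 windows are shown because they are all the members' windows that hold an E2F word. Capitals mark the word, which reads in reverse complement where it lies on the opposite strand, and each sequence runs 5′ to 3′ on the gene's strand.
FANCA promoter, chr16:89816598-89816897, minus strand: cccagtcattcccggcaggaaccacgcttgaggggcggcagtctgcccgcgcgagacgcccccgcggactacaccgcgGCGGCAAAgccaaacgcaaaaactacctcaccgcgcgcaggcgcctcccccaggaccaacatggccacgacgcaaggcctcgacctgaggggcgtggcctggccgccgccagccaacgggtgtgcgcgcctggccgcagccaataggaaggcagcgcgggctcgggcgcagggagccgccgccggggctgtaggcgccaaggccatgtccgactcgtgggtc
FANCD2 promoter, chr3:10026187-10026486, plus strand: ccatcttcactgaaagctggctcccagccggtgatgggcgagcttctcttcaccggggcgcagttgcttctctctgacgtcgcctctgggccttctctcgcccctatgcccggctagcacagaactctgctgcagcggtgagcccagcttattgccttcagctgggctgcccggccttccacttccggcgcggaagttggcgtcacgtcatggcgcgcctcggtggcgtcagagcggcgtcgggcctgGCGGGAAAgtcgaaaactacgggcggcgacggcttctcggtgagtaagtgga
EXO1 promoter, chr1:241847954-241848253, plus strand: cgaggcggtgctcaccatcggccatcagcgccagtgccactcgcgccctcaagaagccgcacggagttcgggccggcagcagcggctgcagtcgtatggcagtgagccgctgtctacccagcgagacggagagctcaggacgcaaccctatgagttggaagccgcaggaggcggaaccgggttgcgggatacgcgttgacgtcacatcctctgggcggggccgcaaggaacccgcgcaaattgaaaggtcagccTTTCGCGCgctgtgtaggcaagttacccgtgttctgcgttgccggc
XRCC2 promoter, chr7:152676092-152676391, minus strand: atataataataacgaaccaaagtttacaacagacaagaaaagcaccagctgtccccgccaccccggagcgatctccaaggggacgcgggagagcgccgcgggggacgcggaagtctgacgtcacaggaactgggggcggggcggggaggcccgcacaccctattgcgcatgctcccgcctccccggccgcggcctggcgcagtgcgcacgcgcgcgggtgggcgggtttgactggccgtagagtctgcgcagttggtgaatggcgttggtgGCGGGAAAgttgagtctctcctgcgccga
FANCC promoter, chr9:95317660-95317959, minus strand: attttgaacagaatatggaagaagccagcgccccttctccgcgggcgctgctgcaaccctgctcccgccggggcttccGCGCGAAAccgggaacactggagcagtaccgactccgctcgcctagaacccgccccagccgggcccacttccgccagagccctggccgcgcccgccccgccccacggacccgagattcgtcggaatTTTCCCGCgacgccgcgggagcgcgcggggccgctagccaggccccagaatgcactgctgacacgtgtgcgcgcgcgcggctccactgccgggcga

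In FANCD2 the word crossed the start, from base -2 to base 5 with the start base as 0. In EXO1 it lay at bases 4 to 11 and in XRCC2 at bases 21 to 28, both inside the transcribed part, whereas the word of FANCA lay at -172 to -165. FANCC held a word at -172 to -165 and another at -46 to -39. Its window lies within the wider GENCODE span of the gene, not at the outermost start. The same holds for the windows of MUS81, RAD50, RBBP8, RAD51B, RAD51D and RAD52, which held no E2F word. The CHR words TTTGAA and TTCGAA, an element of genes transcribed in G2 phase, stood in 4 of 34 members (11.8%, against 10.9% of the windows of tested genes). The CCAAT word stood in 13 of 34 (38.2%, against 36.3%), and the brachyury (T-box) core word AGGTGTGA in 0 of 34 (against 0.704%). No match of one motif overlapped a match of another in the members. A word is a match of letters and not a measured site, and the absence of one says only that these letters are not in the window.

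Of the 8 core complex genes, 3 fell (37.5%, beside 15.2% of all genes), 1 rose (12.5%, beside 17.1%) and 4 were not called. FANCG, a scaffold of the complex that binds FANCA, was at 112, 115 and 101 CPM in the shNC libraries and at 45.8, 43.4 and 44.1 CPM in the shBry libraries. The groups were far apart, and FANCG fell 2.46-fold (log2 fold change -1.30, SE 0.09, edgeR adjusted p 2.4e-08). Its gene lies at chr9:35073835-35080016 on the minus strand, and no other gene of the annotation shares its exons. FANCA, its binding partner, measured 123, 126 and 113 CPM in shNC and 62.0, 60.7 and 60.0 CPM in shBry. It fell 1.99-fold (log2 fold change -0.99, SE 0.08, edgeR adjusted p 2.2e-07). The shBry libraries of FANCA differed by an SD of only 1.03 CPM, and 23.6% of its exon bases at chr16:89737549-89816657 are also exon bases of ZNF276 on the opposite strand. FANCL, the subunit that carries the ubiquitin ligase activity, was far less abundant, at 7.33, 10.2 and 10.7 CPM in shNC and 4.04, 4.38 and 4.70 CPM in shBry. It fell 2.14-fold (log2 fold change -1.10, SE 0.18, edgeR adjusted p 0.00015), with no overlap between the groups.

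FANCC went the other way from FANCA, FANCG and FANCL. Together with FANCE and FANCF it forms the part of the core complex that binds FANCD2. FANCC was at 29.5, 28.5 and 27.1 CPM in shNC and 52.1, 46.3 and 49.1 CPM in shBry, a 1.73-fold rise (log2 fold change 0.79, SE 0.10, edgeR adjusted p 1e-05). Its partner FANCE was at 40.5 ± 0.55 CPM in shNC and 38.9 ± 1.91 CPM in shBry (SD, n = 3 each), a log2 fold change of -0.06 with a 95% interval of -0.26 to 0.14. FANCF, at about 3 CPM in shNC, had a log2 fold change of -0.31 and a wider interval of -0.86 to 0.23. FANCB, which sits beside FANCL in the catalytic module, and FANCM, the translocase that anchors the complex on DNA, were also near this level. FANCB measured 2.02, 2.55 and 3.56 CPM in shNC and 1.62, 3.29 and 1.6 CPM in shBry, and FANCM measured 2.47, 2.98 and 3.71 CPM against 1.62, 3.12 and 1.46 CPM. In FANCB, FANCF and FANCM alike, shBry replicate 2 stood well above the other 2 shBry libraries. Without that library all 3 were called lower, with log2 fold changes of -0.76, -0.65 and -1.0. The edgeR adjusted p were 0.036, 0.035 and 0.005. Each was called in only that 1 of the 6 fits that left out 1 library. FANCB was at -0.08 without shNC replicate 3, and FANCF and FANCM were at -0.15 and -0.34 without shBry replicate 3.

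The ubiquitin step had lower values throughout. UBE2T, the ubiquitin-conjugating enzyme that works with FANCL, was at 54.4, 57.4 and 55.4 CPM in shNC and 30.7, 33.3 and 32.5 CPM in shBry, and fell 1.73-fold (log2 fold change -0.79, SE 0.09, edgeR adjusted p 5.6e-06). FANCD2, one part of the clamp that receives the ubiquitin, was at 75.0, 80.8 and 79.8 CPM in shNC and at 46.5, 54.3 and 49.7 CPM in shBry, a 1.56-fold fall (log2 fold change -0.64, SE 0.09, edgeR adjusted p 3.4e-05). FANCI, its partner in the clamp, went from 83.8, 87.1 and 98.7 CPM to 63.6, 65.0 and 64.1 CPM. The FANCI groups did not overlap and the adjusted p was 0.00033, but the fold change of 1.40 was under the limit. All 3 genes had their highest shBry library below their lowest shNC library, as did 28.9% of all genes.

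Among the nucleases and their scaffold, EME1 and SLX4 fell. EME1 is the regulatory partner of the nuclease MUS81. It was at 24.6, 26.8 and 26.3 CPM in shNC and 12.4, 13.0 and 10.7 CPM in shBry, a 2.16-fold fall (log2 fold change -1.11, SE 0.12, edgeR adjusted p 4.1e-06), at chr17:50373220-50381483, where LRRC59 on the opposite strand shares 16.4% of its exon bases. MUS81 itself was at 49.1 ± 4.89 CPM in shNC and 51.6 ± 3.91 CPM in shBry (SD, n = 3 each), with a log2 fold change of 0.07 and an interval of -0.15 to 0.29. SLX4, the scaffold that gathers several of these nucleases, was at 37.9, 38.2 and 38 CPM in shNC and 25.4, 26.7 and 21.7 CPM in shBry. It fell 1.55-fold (log2 fold change -0.63, SE 0.11, edgeR adjusted p 0.00022), but dropped under the fold limit without shBry replicate 3 (-0.55) and with the GC and length trend removed (-0.54). FAN1, a nuclease recruited by ubiquitylated FANCD2, was at 3.83 to 4.22 CPM in shNC and 3.34 to 3.50 CPM in shBry, without overlap, and its adjusted p was 0.32.

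The end resection genes did not move as one. EXO1, the exonuclease of long-range resection, was at 28.5, 28.2 and 32.9 CPM in shNC and 13.8, 15 and 12.7 CPM in shBry, and fell 2.16-fold (log2 fold change -1.11, SE 0.12, edgeR adjusted p 3.5e-06). RAD50 and NBN, which together with MRE11 form the complex that senses and first trims a broken end, were both called higher. RAD50 was at 24.7, 22.6 and 33.1 CPM in shNC and 52.8, 61.3 and 47.1 CPM in shBry, a 2.01-fold rise (log2 fold change 1.0, SE 0.14, edgeR adjusted p 3.6e-05). Of the exon bases of RAD50 at chr5:132556019-132646344, 79.7% are shared with other annotated genes, another annotated locus on its own strand and TH2LCRR on the opposite strand, so its counts are uncertain. NBN was at 15.1, 18.2 and 23.8 CPM in shNC and 22.3, 39.6 and 26.2 CPM in shBry. The NBN groups overlapped and 1 library stood high, shBry replicate 2. NBN passed the test (1.55-fold, log2 fold change 0.63, SE 0.20, edgeR adjusted p 0.015), but without that library its log2 fold change was 0.34 with an adjusted p of 0.066, and with the GC and length trend removed it was 0.44, under the fold limit. The NBN call was also lost without shNC replicate 1 (0.49, edgeR adjusted p 0.073) and without shNC replicate 2 (adjusted p 0.056), so that it held in 3 of the 6 fits that left out 1 library. DESeq2 gave NBN an adjusted p of 0.089. MRE11 (listed as MRE11A), which is not a member, fell from 23, 26.1 and 31.1 CPM to 15.1, 19.1 and 16.2 CPM (log2 fold change -0.67, edgeR adjusted p 0.001). RBBP8, the CtIP protein that activates this complex, was at 25.6 ± 4.21 CPM in shNC and 31.5 ± 2.36 CPM in shBry (SD, n = 3 each), with an adjusted p of 0.061.

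**Figure D3:**
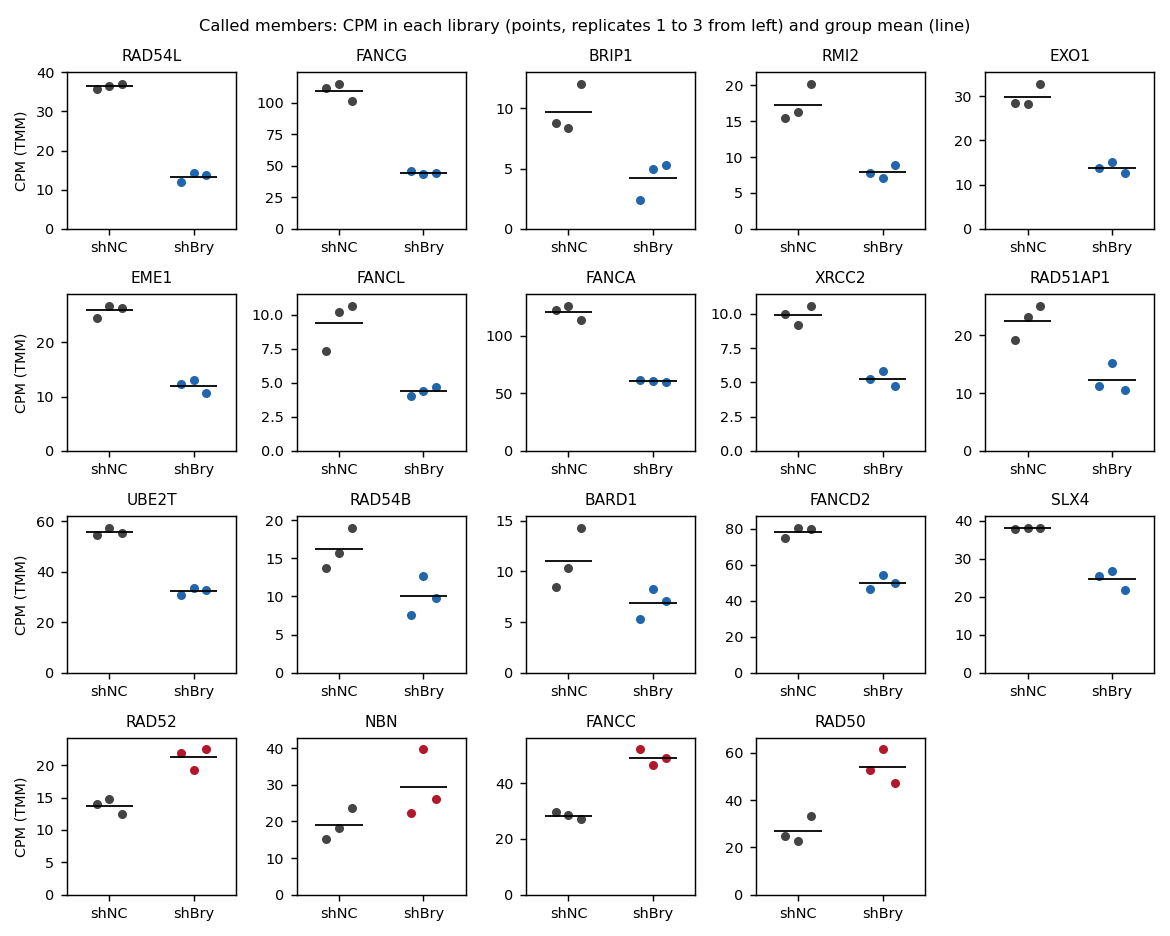
CPM of the 19 called members in each library (points, replicates 1 to 3 from left to right; lines are group means; each y axis starts at 0). The groups are apart in every panel but NBN, where shBry replicate 2 at 39.6 CPM lies above the rest and shBry replicate 1 lies below the highest shNC library.

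In the BRCA complexes, BRIP1 and BARD1 fell while BRCA1, PALB2 and BRCA2 were not called. BRIP1, a helicase that binds BRCA1, was at 8.80, 8.37 and 12.1 CPM in shNC and 2.37, 4.97 and 5.28 CPM in shBry. It fell 2.29-fold (log2 fold change -1.20, SE 0.25, edgeR adjusted p 0.001), and the spread within shBry was wide, with replicate 1 lowest. BARD1, the partner that forms a ubiquitin ligase with BRCA1, was at 8.43, 10.4 and 14.3 CPM in shNC and 5.33, 8.22 and 7.09 CPM in shBry, so that the highest shBry library came close to the lowest shNC library. BARD1 fell 1.59-fold (log2 fold change -0.67, SE 0.21, edgeR adjusted p 0.013), and was no longer called without shNC replicate 3, at -0.46 with an adjusted p of 0.078, or without shBry replicate 1, at -0.52. BRCA1 was at 32.9, 32.5 and 40.9 CPM in shNC and 32.4, 40 and 31.2 CPM in shBry. Its log2 fold change was -0.03 with an interval of -0.30 to 0.23. BRCA2, a mediator of strand exchange, and PALB2, which links it to BRCA1, had log2 fold changes of 0.10 (interval -0.29 to 0.49) and 0.22 (interval -0.10 to 0.54).

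Of RAD51B, RAD51C, RAD51D, XRCC2 and XRCC3, which form the BCDX2 and CX3 complexes that assist strand exchange, only XRCC2 was called by edgeR at this rule. That is 20% of these genes, beside 32.4% of all genes tested. XRCC2, at chr7:152644779-152676165, measured 9.99, 9.17 and 10.6 CPM in shNC and 5.22, 5.82 and 4.74 CPM in shBry, a 1.88-fold fall (log2 fold change -0.91, SE 0.16, edgeR adjusted p 0.0002). RAD51D, which binds XRCC2 directly, was at 11.8, 11.3 and 10.8 CPM in shNC and 9.91, 8.01 and 9.13 CPM in shBry. The RAD51D groups did not overlap, with a log2 fold change of -0.33, and its adjusted p was 0.061. RAD51B and RAD51C, the other genes of the same complex, had values of 0.14 (interval -0.16 to 0.45) and 0.22 (interval -0.08 to 0.52). XRCC3, the second partner of RAD51C, had a log2 fold change of -0.16 (interval -0.36 to 0.05), and 76.7% of its exon bases are shared with KLC1 on the opposite strand.

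The lowest ratio of all members was that of RAD54L, a motor protein that drives strand exchange. RAD54L was at 35.7, 36.5 and 37.1 CPM in shNC and 11.9, 14.2 and 13.8 CPM in shBry. It fell 2.74-fold (log2 fold change -1.45, SE 0.11, edgeR adjusted p 1.3e-07) and stayed between -1.51 and -1.38 when each library was left out in turn. The gene lies at chr1:46247688-46278473, and LRRC41 on the opposite strand shares 25.1% of its exon bases. Its relative RAD54B was at 13.7, 15.7 and 19 CPM in shNC and 7.54, 12.7 and 9.84 CPM in shBry, a 1.6-fold fall (log2 fold change -0.68, SE 0.18, edgeR adjusted p 0.0062). The RAD54B call was lost without shBry replicate 1 (-0.51) and without shNC replicate 3 (-0.57), and 59.1% of its exon bases are shared with FSBP on the same strand. RAD51AP1, which stimulates strand invasion, was at 19.2, 23.2 and 25.2 CPM in shNC and 11.3, 15.3 and 10.6 CPM in shBry, a 1.82-fold fall (log2 fold change -0.86, SE 0.16, edgeR adjusted p 0.00037).

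RAD52, which anneals complementary single strands, moved opposite to the motors. It was at 14.1, 14.7 and 12.5 CPM in shNC and 21.9, 19.3 and 22.4 CPM in shBry, a 1.54-fold rise without overlap (log2 fold change 0.62, SE 0.12, edgeR adjusted p 0.00078), close to the limit. The RAD52 value dropped just under the limit without shBry replicate 3 (0.58) and without shNC replicate 3 (0.53), with adjusted p of 0.006 and 0.005. HELQ, a helicase that also anneals strands, was at 3.16 to 3.86 CPM in shNC and 3.79 to 4.92 CPM in shBry, with overlap and a log2 fold change of 0.36 (interval -0.06 to 0.78).

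The last step was represented by the complex of BLM, TOP3A, RMI1 and RMI2, which dissolves joined molecules without crossing over. RMI2 was at 15.4, 16.3 and 20.2 CPM in shNC and 7.75, 7.12 and 8.91 CPM in shBry, a 2.18-fold fall (log2 fold change -1.12, SE 0.15, edgeR adjusted p 2.5e-05). BLM, the helicase of the complex, was at 19.6, 19.7 and 22.2 CPM in shNC and 15.1, 14.2 and 14.8 CPM in shBry. The BLM groups did not overlap and the adjusted p was 0.0035, but the log2 fold change of -0.48 was under the limit. TOP3A, the topoisomerase, was at 93.9 ± 3.13 CPM in shNC and 89.5 ± 3.36 CPM in shBry (SD, n = 3 each), a log2 fold change of -0.07 with an interval of -0.24 to 0.10. RMI1 was at 3.02, 3.97 and 6.96 CPM in shNC and 2.48, 4.38 and 2.75 CPM in shBry, overlapping and uneven in both groups. Its log2 fold change was -0.52 with an adjusted p of 0.15, and it was called lower without shBry replicate 2 (-0.83, edgeR adjusted p 0.02). RMI1 was called in 2 of the 6 fits that left out 1 library, and was at -0.14 without shNC replicate 3.

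**Figure D4:**
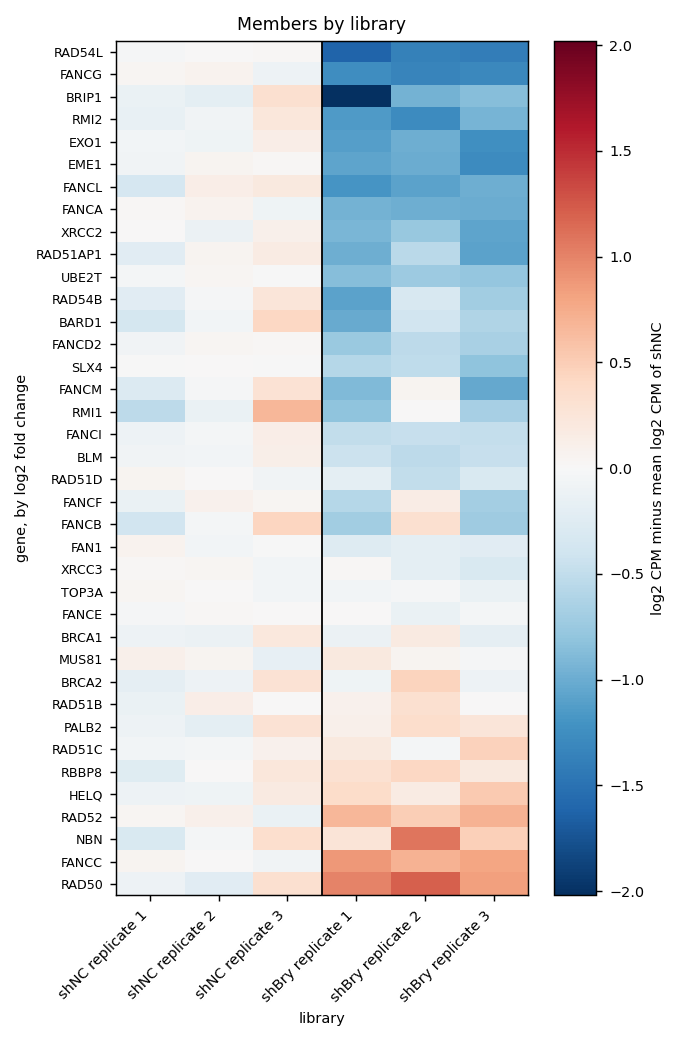
Log2 CPM of each member in each library, minus the mean of the 3 shNC libraries (color), with members ordered by log2 fold change. The shBry columns are blue in the upper rows, led by RAD54L, and red in the lowest rows, and shBry replicate 2 is paler or red in FANCM, FANCF and FANCB, where the other 2 shBry libraries are blue.

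Of 9 pairs of partner genes, 6 had ratios that did not overlap between the groups, beside 59.5% of all single genes without overlap, so the count is no result about the pairs. Ratios were taken per length, as CPM divided by the exon length in kilobases (RPKM), in pairs chosen after the values were seen. MUS81 over EME1 was 1.14 ± 0.150 in shNC and 2.59 ± 0.213 in shBry (SD, n = 3 each), with no overlap between the groups. BRCA1 over BRIP1 went from 3.19 ± 0.221 to 8.02 ± 3.49, and BRCA1 over BARD1 from 2.18 ± 0.359 to 3.38 ± 0.573. TOP3A over RMI2 went from 3.10 ± 0.526 to 6.40 ± 0.940. FANCA over FANCG was 0.411 ± 0.00432 in shNC and 0.509 ± 0.00922 in shBry, since FANCG had the lower of their 2 fold changes. RAD51C over XRCC3 was 0.261 in shNC and 0.344 in shBry, and these 6 ratios did not overlap between the groups. The exact two-sided permutation test gave each of them p = 0.1, the smallest that 3 against 3 libraries allow, and 0.15 after Benjamini-Hochberg adjustment over 9 pairs. FANCD2 over FANCI, RAD50 over NBN and BRCA2 over PALB2 overlapped, with exact permutation p of 0.2, 0.2 and 0.5.

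On the RPKM scale the most abundant members in shNC were UBE2T at 33.8 ± 0.926 and FANCG at 30.3 ± 2.0, followed by FANCE at 15, TOP3A at 14.5 and FANCA at 12.4. In shBry the order was UBE2T at 19.5, FANCE at 14.4, TOP3A at 13.8 and FANCG at 12.3. FANCG thus went from place 2 to place 4, EME1 from 12 to 18, RAD54L from 7 to 15 and RMI2 from 15 to 24, whereas RAD50 went from 24 to 11 and FANCC from 26 to 16. FANCM was the least abundant in both groups, at 0.361 and 0.244 RPKM. FANCE and TOP3A were next to each other in the order in shBry. There they differed by less than the SD of FANCE (0.709) but by more than that of TOP3A (0.518).

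The other genes of the pathway were read from a list of 54, of which 51 were tested. Of these, 12 fell (23.5%, beside 15.2% of all genes) and 6 rose (11.8%, beside 17.1%), and their median log2 fold change was -0.27. The rises numbered 3 without shNC replicate 1, 4 without shNC replicate 2, without shBry replicate 2, without TMM or with the GC and length trend removed, and 6 without each other library. By p alone 24 were lower and 7 higher. CENPX, a histone-fold partner of FANCM listed as STRA13, fell from 75.5 ± 5.6 to 36 ± 1.43 CPM (SD, n = 3 each, log2 fold change -1.07, edgeR adjusted p 3.4e-07). UHRF1, which binds crosslinked DNA, fell by 0.81 on the log2 scale. DNA2, the nuclease and helicase of resection beside EXO1, fell by 1.47. Against most of this list, ZSWIM7, a mediator of recombination, rose from 12.4 ± 0.908 to 27.9 ± 1.74 CPM (log2 fold change 1.17, edgeR adjusted p 1.8e-06). FAAP100, the third protein of the module of FANCB and FANCL, rose by 0.90 on the log2 scale. BABAM2 (listed as BRE) and ABRAXAS1 (listed as FAM175A), both of a BRCA1 complex, rose by 0.79 and 0.73. The ABRAXAS1 groups overlapped, at 3.67, 3.07 and 5.36 CPM in shNC and 4.74, 9.48 and 5.67 CPM in shBry (edgeR adjusted p 0.032), and shBry replicate 2 was the highest. The FAM175A call was lost without that library (log2 fold change 0.36, edgeR adjusted p 0.19), without shNC replicate 1 (0.66, adjusted p 0.091), without shNC replicate 2 (0.55, adjusted p 0.14) and without TMM (adjusted p 0.06). WDR48, the cofactor of the enzyme that removes ubiquitin from FANCD2, rose by 0.61, and the helicase WRN by 0.60. The WRN call was lost without shBry replicate 2, shNC replicate 1 or shNC replicate 2, and that of WDR48 without shNC replicate 1. MDC1 was listed at 0 in all 6 libraries.

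The 10 proliferation markers were lower in shBry. All 10 fell (100%, beside 39.5% of the members and 15.2% of all genes). Their median log2 fold change was -1.25, beside -0.41 in the members, and their sum was 757 to 795 CPM in shBry and 1823 to 2002 CPM in shNC. The 3 of smallest adjusted p were PLK1, a mitotic kinase (-1.70), RRM2, a subunit of ribonucleotide reductase (-1.78), and TYMS, thymidylate synthase (-1.29). Among the members, only RAD54L and FANCG were below the median of these markers. The part of the proliferation markers in the members' falls was not tested.

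**Figure D5:**
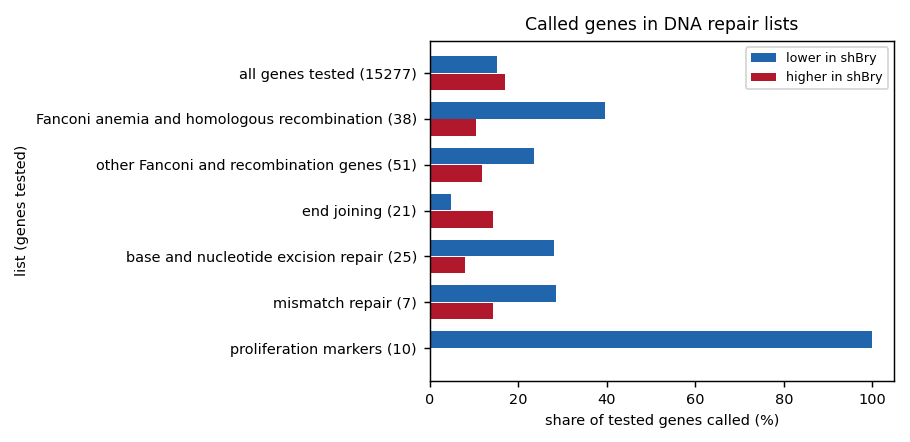
Share of the tested genes of each list that were called lower (blue) or higher (red) in shBry, in percent, with the number tested in parentheses. The members have 39.5% lower and 10.5% higher, all tested genes 15.2% and 17.1%, and the proliferation markers 100% lower.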

How the data were processed

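The authors deposited raw counts, whole numbers of reads per gene symbol in each library, with no normalization. The submitters' processing notes name HISAT2 2.0.4, HTSeq and GRCh38. The annotation and the strand setting of the counting are not given in the sources used here, so overlapping genes may share reads. Samples were grouped by their shRNA label.

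Counts were filtered with filterByExpr (minimum count 10), scaled by TMM and compared in R 4.3.3 with edgeR 4.0.16 (glmQLFit and glmQLFTest, its quasi-likelihood test), with Benjamini-Hochberg adjustment over all genes tested. CPM are TMM-scaled. The SE is the log2 fold change over the square root of F, and intervals are 95%. The step was tested on simulated data. Gene positions and exon lengths came from GENCODE 29 on GRCh38, GC content was known for 13619 tested genes (89.1%) and all 38 members, and promoters came from RefSeq. No protein sequence was used here, and some genes of the other lists are not reported here.

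All members were named. From every other list, the genes called against the direction of most of the list and the 3 of smallest adjusted p were named. Further genes (DNA2, MRE11, LIG4, APLF, MDC1) were named after their values were seen, as were the motifs, the partner pairs and the neighboring genes. The members and lists were chosen with earlier results of these data known. The alternatives comprised DESeq2 1.42.0, limma-voom 3.58.1, unscaled library sizes, other filters and fold limits, a replicate block and each library left out.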

Additional observations from a re-analysis of the deposited data

How the results depend on the processing

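The 19 member calls (15 lower, 4 higher) were all found again without TMM, with limma-voom, without the low-count filter, with at least 10 counts required in every library, and by unadjusted p. DESeq2 kept 18 of them, without NBN. At a fold change above 2, 8 members were called (7 lower, 1 higher), with 2297 of all genes, 3 of the other Fanconi and recombination genes, 0 of the end joining genes (4 at the limit of 1.5, and 5 by unadjusted p at that limit in edgeR) and 2 of the excision and mismatch repair genes. Without a fold limit the counts were 21 members, 8139 of all genes, 31, 9 and 19. Leaving out each library in turn gave 16 to 22 members, 4587 to 5025 of all genes, 16 to 20 of the other Fanconi and recombination genes, 3 to 5 of end joining, 9 to 13 of excision and mismatch repair, and 9 to 10 proliferation markers. The member median then ranged from -0.58 (without shBry replicate 2) to -0.34, beside -0.41 with all libraries. It was -0.53 with the GC and length trend removed and -0.45 without shBry replicate 2 and shNC replicate 3, both chosen after seeing the data. The cause of these shifts was not tested. In these last 2 fits 17 and 18 of the 19 calls were kept.

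No called member changed sign. Among those not called, MUS81 ranged from -0.034 (without shNC replicate 3) to 0.12 when each library was left out, and was -0.032 without shBry replicate 2 and shNC replicate 3. BRCA1 ranged from -0.17 to 0.056, and was above 0 without shBry replicate 1, shBry replicate 3 or shNC replicate 3. BRCA2 ranged from -0.12 (without shBry replicate 2) to 0.23, and was -0.098 with the GC and length trend removed, where FANCE was 0.022 and TOP3A 0.016. The median of all genes lay between -0.015 and 0.036 in every fit, so no scaling moved it by over 0.1.

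Whether the replicate numbers of the labels pair the samples could not be settled from the counts. The correlations of same-numbered libraries' deviations were 0.25, -0.13 and -0.05, and not every library correlated best with its own number. The largest correlation, 0.31, was between shBry replicate 2 and shNC replicate 3, which both ran high on transcripts poor in G and C. A trend of that kind can hide a shared culture or harvest. With the replicate block 19 members were called (15 lower, 4 higher, the same 19 genes), with 4914 of all genes, and the member median was -0.41. The members of lowest counts were FANCB (down to 30 counts), FANCF, FANCM, RMI1, FAN1 and HELQ, and their SE lay between 0.18 and 0.31. An SE in this range also occurred at higher counts, as in NBN (330 to 940 counts, SE 0.20). The part of depth in these SE was not tested.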

Other observations

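Genes of the other DNA repair routes were read beside the members. Of 21 end joining genes tested, 1 fell (4.76%, beside 15.2% of all genes) and 3 rose (14.3%, beside 17.1%), with a median log2 fold change of 0.02. NHEJ1, a scaffold of classical end joining, rose from 17.9 ± 0.332 to 27.7 ± 3.10 CPM (SD, n = 3 each, log2 fold change 0.63, edgeR adjusted p 0.00048). LIG4, the ligase of this route, rose by 0.91 on the log2 scale and APLF, a scaffold factor, by 0.95. LIG3, of the alternative route, was at 43.8 ± 2.32 CPM in shNC and 60.2 ± 2.01 CPM in shBry, with an adjusted p of 0.00059 and a log2 fold change of 0.46 under the limit.

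Of 25 genes of base and nucleotide excision repair, 7 fell (28%) and 2 rose (8%), beside the same 15.2% and 17.1% of all genes, with a median of -0.14. FEN1, the flap nuclease that also acts in replication, fell from 214 ± 3.97 to 74.9 ± 7.54 CPM (log2 fold change -1.52, edgeR adjusted p 6.5e-09), a lower ratio than that of any member. UNG, which removes uracil from DNA, fell by 1.27 on the log2 scale and APEX1, which cuts at the base-free site that remains, by 0.84, while TDG, a thymine glycosylase, rose by 0.75 and RAD23B, the partner of the damage sensor XPC, by 0.59. In mismatch repair 2 of 7 genes fell (28.6%, beside 15.2% of all genes) and 1 rose (14.3%, beside 17.1%), with a median of 0.18. MSH6, a sensor of mismatches, fell by 0.76, and MLH3 rose by 0.60. RAD23B, MLH3 and WRN were near the fold limit and dropped under it in several alternatives.

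Several members share a start region with a gene on the opposite strand. EME1 and MRPL27 start 6 bases apart, and MRPL27 had a log2 fold change of -0.50 (edgeR adjusted p 0.0021, under the fold limit) beside -1.11 for EME1. SLX4 and DNASE1 start 130 bases apart, at -0.63 and -0.55. RAD51AP1 (-0.86) and C12orf4 (0.45), 290 bases apart, had opposite signs, as did RAD52 (0.62) and ERC1 (-0.15), 456 bases apart. The RefSeq promoter window of RAD52, however, lies at chr12:949645-949944, far inside its GENCODE span of chr12:912077-990053. RAD51C, XRCC3 and HELQ were not called, whereas TEX14, 518 bases from RAD51C, fell by 1.04 (edgeR adjusted p 0.0074), ZFYVE21, 226 bases from XRCC3, fell by 0.80, and MRPS18C, 76 bases from HELQ, rose by 0.77. BRCA1 and NBR1, whose outermost starts lie 236 bases apart, were at -0.03 and 0.06. Noncoding neighbors, and neighbors of other starts of a gene, were not searched.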
